A study of Mus musculus with 4 samples.

Results

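The cytosolic heat shock genes described here are 10 genes of the mouse, taken by their symbols from count tables that list 56691 genes. They are the heat shock transcription factor gene Hsf1, 7 genes whose transcription HSF1 raises under stress (Hspa1a, Hspa1b, Dnajb1, Hsph1, Hspb1, Bag3 and Hsp90aa1), and the 2 constitutive genes Hspa8 and Hsp90ab1. The libraries were made from poly(A) RNA of Ter119+ cells of mouse bone marrow, 2 from mice labelled Med16 fl/fl, in which both Med16 alleles are floxed, and 2 from mice labelled Med16 KO. The titles of the KO libraries read M16DK, which the labels do not explain, and the genotype label was followed here. All 4 carry a time label of 3 weeks, whose starting point the labels do not give. Ter119 is a surface antigen of the erythroid lineage, and Med16 encodes a tail subunit of Mediator, through which DNA-bound transcription factors reach RNA polymerase II. The labels do not say which Cre line or cell type carries the deletion, whether Cre is present in the fl/fl group, or whether the 2 libraries per genotype are from different animals. The p values therefore reflect only how far these libraries spread, and that spread may be technical.

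Cytosolic chaperones hold unfolded proteins in solution and help them fold. HSP70 proteins bind client chains in a cycle of ATP hydrolysis that J-domain proteins such as DNAJB1 start and that nucleotide exchange factors such as HSPH1 and BAG3 reset, and HSP90 proteins act later on kinases, receptors and other clients. Under stress HSF1 forms trimers on inverted GAA units, the heat shock element, and recruits Mediator to the target genes. Erythroid cells depend on HSP70, which is known to protect the factor GATA1 from cleavage during maturation, and on a haem-responsive kinase that HSP90 folds.

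The promoters of some of these genes hold letter matches to the heat shock element. The paired unit searched was GAANNTTC or TTCNNGAA, where N is any base. The triple unit is such a pair followed, after 2 bases of any kind, by a further unit in the opposite orientation. Each paired motif reads the same on both strands, the triple motif was searched on both, and a triple contains overlapping pairs. RefSeq promoter windows of 300 bases (250 before the transcript start and 50 after it, build GRCm38.p6) matched 6 of the 10 genes. These were Hspa1a, Hspa1b, Dnajb1, Hsph1, Hspb1 and Bag3. A paired unit was found in 5 of those 6, all but Dnajb1, and in 6 of their 8 windows, while 15.1% of all 32851 windows held one. That of Bag3 did not lie within the 250 bases before the start. A triple unit was found in Hsph1 alone among the 6 (2 of the 8 windows), against 0.603% of all windows. The 250 bases before the start are shown for Hspa1a and Hspa1b, the members with the largest fall below, and for Hspb1, which has a pair of units but hardly a read. For Hsph1 the 30 bases around the triple unit are shown, whose motif begins 16 or 37 bases after the start, depending on the RefSeq transcript. Capitals mark the units. The stretches lie at chr17:34972157-34972406 (minus strand) for Hspa1a, chr17:34959239-34959488 (minus) for Hspa1b, chr5:135887669-135887918 (plus) for Hspb1 and chr5:149636279-149636308 (minus) for Hsph1, all in GRCm38.p6.
Hspa1a: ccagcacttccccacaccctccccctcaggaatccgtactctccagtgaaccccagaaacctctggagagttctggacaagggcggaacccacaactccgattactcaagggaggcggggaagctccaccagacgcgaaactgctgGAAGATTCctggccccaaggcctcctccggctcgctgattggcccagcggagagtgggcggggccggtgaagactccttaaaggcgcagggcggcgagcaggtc
Hspa1b: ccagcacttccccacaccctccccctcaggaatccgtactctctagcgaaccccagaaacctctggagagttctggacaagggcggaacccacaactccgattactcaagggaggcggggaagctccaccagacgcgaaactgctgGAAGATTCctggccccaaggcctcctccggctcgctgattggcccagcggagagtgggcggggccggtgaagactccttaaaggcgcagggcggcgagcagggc
Hspb1: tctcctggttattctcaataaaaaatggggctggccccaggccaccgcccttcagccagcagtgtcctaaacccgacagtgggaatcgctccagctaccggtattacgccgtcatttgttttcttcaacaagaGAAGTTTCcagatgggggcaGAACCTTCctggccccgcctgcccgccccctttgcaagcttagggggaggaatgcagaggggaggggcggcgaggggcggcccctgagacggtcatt
Hsph1: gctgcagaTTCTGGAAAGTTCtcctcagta
The Hspa1a and Hspa1b stretches differ at 3 of 250 bases (98.8% identical), and the unit begins 104 bases before the start in both. In Hspb1 the units begin 117 and 97 bases before the start. These are letter matches, with no measurement of HSF1 binding.

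The libraries held 6749196 to 7216333 counts assigned to genes. Med16 followed its labels, with 164 and 127 counts in fl/fl and 16 and 30 in KO (log2 fold change -2.64 with SE 0.34; adjusted p = 4.6e-05 by the edgeR quasi-likelihood test with Benjamini-Hochberg adjustment, as for every adjusted p unless another tool is named). Of 9 erythroid markers tested 8 were lower and 1 higher in KO (0 higher with a GC content or transcript length offset). Their summed level was 31650 to 31693 CPM (counts scaled to library size by TMM) in fl/fl and 26106 to 26264 in KO. The sorted cell type was thus present in every library. Markers of other marrow cells also moved with genotype, while 8.5% of all genes tested were called higher and 9.89% lower. Of 14 neutrophil markers 13 were higher and none lower (11 higher with a GC content offset), with sums of 14051 to 14215 CPM in fl/fl and 19953 to 20353 in KO. Of 11 megakaryocyte markers tested 10 were higher and none lower, with sums of 98.2 to 112 and 241 to 246 CPM (6 were higher when fl/fl library 1 was left out, 5 when fl/fl library 2 was, and 4 with DESeq2). Of 12 monocyte and macrophage markers 3 were higher and 2 lower (651 to 653 and 753 to 770 CPM), with 0 lower when either fl/fl library was left out or with DESeq2, library size alone or a GC content offset, and 3 lower without KO library 1. Of 10 B cell markers 2 were higher and none lower (914 to 924 and 3389 to 3407 CPM), most of that sum being Ighm, and 1 was higher when either fl/fl library was left out, against 3 higher and 1 lower without KO library 1. Of 5 stromal and endothelial markers tested 2 were higher and none lower (146 to 153 and 245 to 295 CPM, with Emcn at 0 counts in all 4 libraries), 3 without KO library 1, and 4 of 7 tested without KO library 2. The part of these cells in the results below was not tested. In bulk RNA, fewer cells of a type cannot be told apart from less RNA per cell.

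Most heat shock genes were lower in Med16 KO. Of the 10 genes 9 passed the filter on low counts, and 6 of them were called lower and 2 higher at an adjusted p under 0.05. Over all 13052 genes tested, 9.89% were called lower and 8.5% higher. The lower genes were Hspa1b, Hspa1a, Hsph1, Dnajb1, Hsp90aa1 and Hspa8, and the higher ones Hsp90ab1 and Hsf1. Bag3 was not called and Hspb1 was too low to test. Without fl/fl library 1 there were 5 members lower and 1 higher, and without fl/fl library 2 there were 4 lower and 1 higher. In all 8 called genes the values of the genotypes did not overlap, but with 2 libraries a genotype that also held for 28.2% of all tested genes in the lower and 29.4% in the higher direction. The median log2 fold change was -0.41 over the 9 genes and -0.46 over the 6 inducible genes tested, and 0.02 over all genes tested. The choice of scaling set the balance of calls over all genes: with library size alone 1365 were higher and 1054 lower, against 1109 and 1291 with TMM. No called member changed direction under any scaling. With an assumed biological coefficient of variation of 0.2, chosen after seeing the data, Hspa1a and Hspa1b were the only members called.

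**Figure D1:**
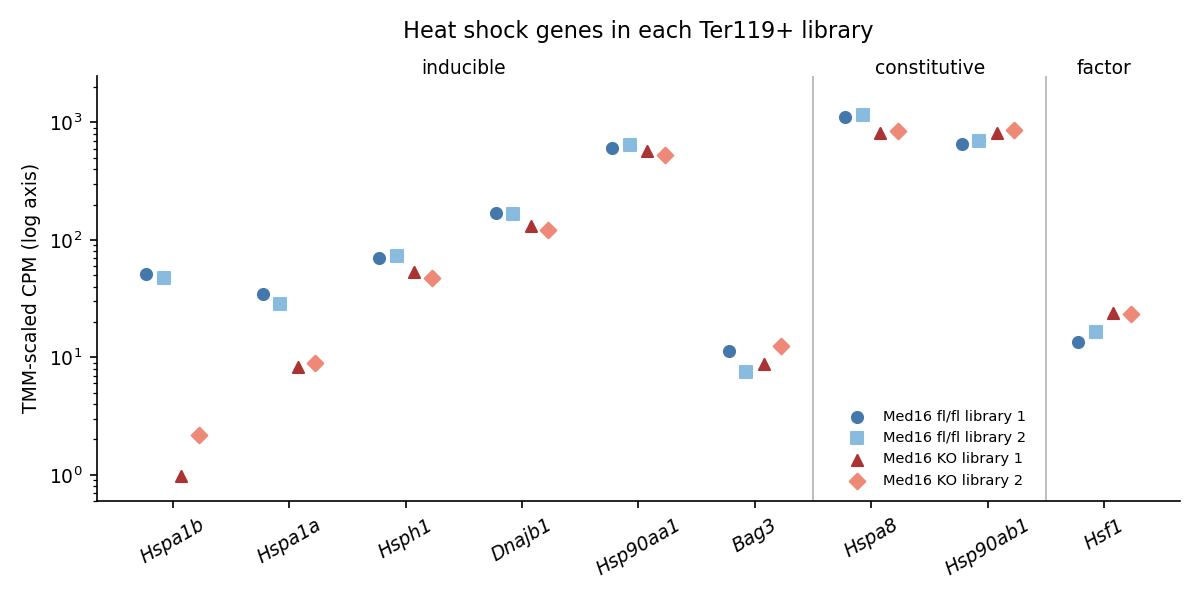
TMM-scaled CPM (log axis) of 9 heat shock genes in each of the 4 libraries, 1 point per library; Hspb1, with counts in 1 library only, is not drawn. Hspa1b and Hspa1a show the widest gap between genotypes, the Bag3 points of the genotypes interleave, and Hsp90ab1 and Hsf1 are the genes whose KO points lie above the fl/fl points.

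Hspa1a and Hspa1b are neighbouring copies that encode closely similar stress-inducible HSP70 proteins, whose identity was not computed here. Hspa1b stood at 51.4 and 47.3 CPM in the fl/fl libraries and at 0.98 and 2.2 CPM in the KO libraries, which is 364 and 327 against 7 and 15 counts. Both KO libraries were far below both fl/fl libraries. The log2 fold change was -4.95 (SE 0.29, edgeR adjusted p = 1e-08), or 30.9-fold lower. Only 0.253% of all tested genes had a larger change in either direction. For the other called members that share ran from 1.95% for Hspa1a to 67.3% for Hsp90aa1, with 33.9% for Hspa8. Hspa1a stood at 34.9 and 28.3 CPM in fl/fl and at 8.26 and 8.95 CPM in KO. It was again low in both KO libraries, at a log2 fold change of -1.88 (SE 0.23, edgeR adjusted p = 2.4e-05), or 3.67-fold lower. Hspa1b had more counts than Hspa1a in both fl/fl libraries and fewer in both KO libraries. The share of Hspa1a in the counts of the pair was 40.4% (95% Clopper-Pearson interval 36.5 to 44.4) and 37.5% (33.3 to 41.8) in fl/fl. It was 89.4% (79.4 to 95.6) and 80.3% (69.5 to 88.5) in KO. These intervals, like all others of shares, cover counting error only.

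The split between the copies is uncertain, because their sequences are nearly alike and reads without a unique alignment were not counted. In the GENCODE M21 transcripts, 58.8% of the 50-base windows of Hspa1a also occur in Hspa1b, and 47.1% of its 100-base windows do. For Hspa1b the shares found in Hspa1a were 62.3% and 49.9%. In addition, 19.0% of the exon length of Hspa1a is overlapped by Gm20481 on the opposite strand. With the strand setting of the counting not given, their reads cannot be told apart, and Gm20481 had 149 and 110 counts in fl/fl and 36 and 21 in KO. Summing the copies removes the question of how counted reads were split between them, but not that of reads left uncounted. The sum was 80.9 ± 7.52 CPM in fl/fl and 10.2 ± 1.35 CPM in KO (mean ± SD of the 2 libraries, here and wherever ± is used), a log2 fold change of -2.99 (SE 0.17, edgeR adjusted p = 7.6e-09, a sum chosen after seeing the data).

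The partners of inducible HSP70 fell with smaller log2 fold changes. Dnajb1, the J-domain protein that stimulates HSP70, stood at 169 and 165 CPM in fl/fl and at 131 and 121 CPM in KO. The log2 fold change was -0.41 (SE 0.08, edgeR adjusted p = 0.002), a fall of 24.8%. Hsph1, the HSP110 exchange factor that carries the triple unit shown above, stood at 69.9 and 73.2 CPM in fl/fl and at 52.9 and 46.9 CPM in KO. Its log2 fold change was -0.52 (SE 0.12, edgeR adjusted p = 0.0073). That call ended without fl/fl library 1 (log2 fold change -0.56, adjusted p = 0.051) and without fl/fl library 2 (-0.49, adjusted p = 0.127). Both genes were lower in each KO library than in either fl/fl library.

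Bag3 and Hspb1 gave no call. Bag3, an exchange factor that also directs damaged proteins to autophagy, stood at 11.4 and 7.52 CPM in fl/fl and at 8.82 and 12.6 CPM in KO, so the genotypes overlapped. Its log2 fold change of 0.17 had a 95% interval of -0.51 to 0.86 (edgeR adjusted p = 0.772), which leaves room for a change of the size seen in Dnajb1 downwards or in Hsf1 upwards. Hspb1, the small heat shock protein HSP27, had 0 counts in both fl/fl libraries, 8 in KO library 1 and 0 in KO library 2. A count of 0 allows up to 0.416 to 0.444 CPM in these libraries. Of its 100-base windows 42.7% are shared with the pseudogene Hsp25-ps1, which had 0 counts in all 4 libraries, and the remaining windows could have been counted.

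The constitutive genes moved in opposite directions. Hspa8, the HSC70 protein that serves folding and clathrin uncoating in unstressed cells, stood at 1112 and 1169 CPM in fl/fl and at 810 and 852 CPM in KO. The log2 fold change was -0.46 (SE 0.04, edgeR adjusted p = 2.1e-06). Hsp90ab1, the constitutive HSP90, stood at 654 and 690 CPM in fl/fl and at 820 and 855 CPM in KO. It rose by a log2 fold change of 0.32 (SE 0.05, edgeR adjusted p = 0.00016). Hsp90aa1, the inducible HSP90, stood at 609 and 646 CPM in fl/fl and at 572 and 524 CPM in KO. Its log2 fold change was -0.20 (SE 0.05, edgeR adjusted p = 0.02), the smallest size among the called members. That call ended with library size as the only scaling (-0.14, adjusted p = 0.10), with a GC content offset (-0.07, adjusted p = 0.393) and without fl/fl library 2 (-0.16, adjusted p = 0.195).

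Pseudogenes share sequence with Hspa8 and Hsp90aa1. Gm15459 shares 28.9% of the 100-base windows of Hspa8, and Gm12346 shares 39.6% of those of Hsp90aa1. No 100-base window of Hsp90ab1 occurs in another annotated gene. Gm15459 had 135 and 147 counts in fl/fl and 106 and 139 in KO, and Gm12346 had 43 and 58 against 33 and 42. These counts are small beside the 5783 to 8087 counts of Hspa8 and the 3570 to 4471 of Hsp90aa1. The pseudogene counts cannot show how many reads of either gene were lost, because reads without a unique alignment were not counted. Of the 50-base windows, 51.4% of those of Hspa8 and 58.5% of those of Hsp90aa1 occur in another gene. For 100-base windows the shares were 31.6% and 47.5%.

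Hsf1, the factor itself, was higher in KO. It stood at 13.4 and 16.5 CPM in fl/fl and at 24.1 and 23.3 CPM in KO, on 95 and 114 against 172 and 159 counts. The log2 fold change was 0.67 (SE 0.22, edgeR adjusted p = 0.044, just inside the threshold). The call ended in 7 of 13 other analyses, among them without fl/fl library 1 (0.51, adjusted p = 0.47), without fl/fl library 2 (0.81, adjusted p = 0.153) and with DESeq2 (0.66, adjusted p = 0.108), while the direction held in all 13. The transcript level gives no information on the trimer or DNA-bound state of the protein.

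**Figure D2:**
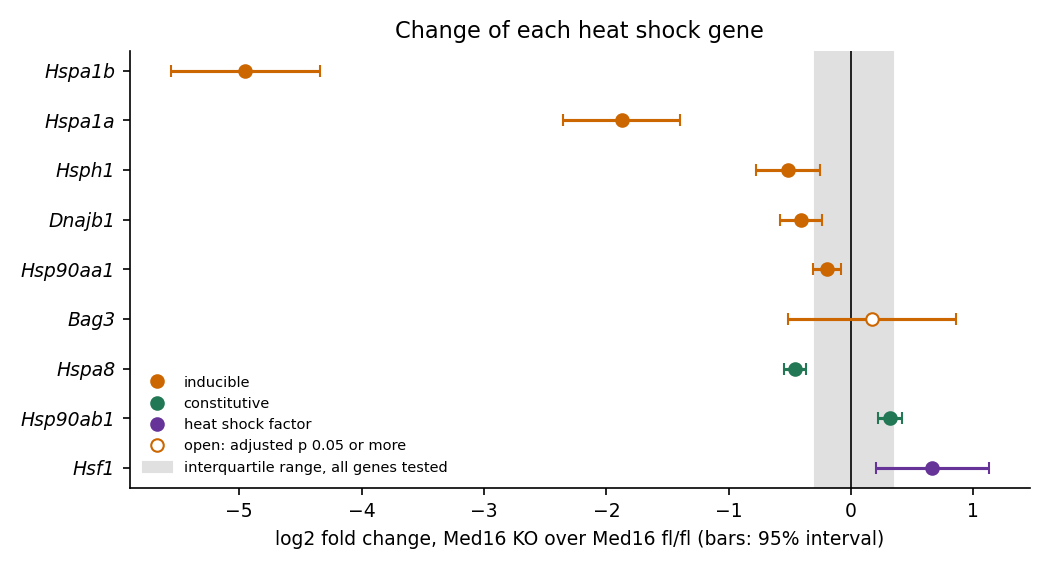
Log2 fold change of each heat shock gene (Med16 KO over Med16 fl/fl) with its 95% interval from the edgeR fit; filled points passed the adjusted p threshold, and the grey band spans the interquartile range of all genes tested, from -0.29 to 0.34. Hspa1b at -4.95 and Hspa1a at -1.88 stand far to the left of the other 7 genes, which lie between -0.52 and 0.67.

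Inducible and constitutive forms were then compared within each library, where the ratio of a pair does not depend on library scaling. Hsp90aa1 made up 48.2% (47.1 to 49.2) and 48.4% (47.3 to 49.4) of the counts of both HSP90 genes in fl/fl, and 41.1% (40.1 to 42.1) and 38.0% (37.0 to 39.0) in KO. The share was lower in each KO library than in either fl/fl library. The log2 ratio of Hsp90aa1 to Hsp90ab1 differed by -0.51, from -0.10 ± 0.01 to -0.61 ± 0.13. Hspa1a and Hspa1b together made up 7.2% (6.66 to 7.77) and 6.07% (5.58 to 6.6) of the counts of these copies and Hspa8 in fl/fl. In KO they made up 1.13% (0.874 to 1.43) and 1.29% (1.02 to 1.61). The log2 ratio to Hspa8 differed by -2.53, from -3.82 ± 0.19 to -6.35 ± 0.14, although Hspa8 itself was lower. For each of these 2 ratios the two-sided exact permutation test gave p = 0.333, the smallest that 2 against 2 libraries allow, and 0.333 after Benjamini-Hochberg adjustment over the 2. With a GC content offset the differences were -0.34 and -2.87. Of the 100-base windows, 47.5% of those of Hsp90aa1 and none of those of Hsp90ab1 occur in another gene. The Hsp90aa1 share may therefore be understated in both genotypes. Shared windows also make up 48.6% for Hspa1a, 49.9% for Hspa1b and 31.6% for Hspa8, so their shares are uncertain too.

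**Figure D3:**
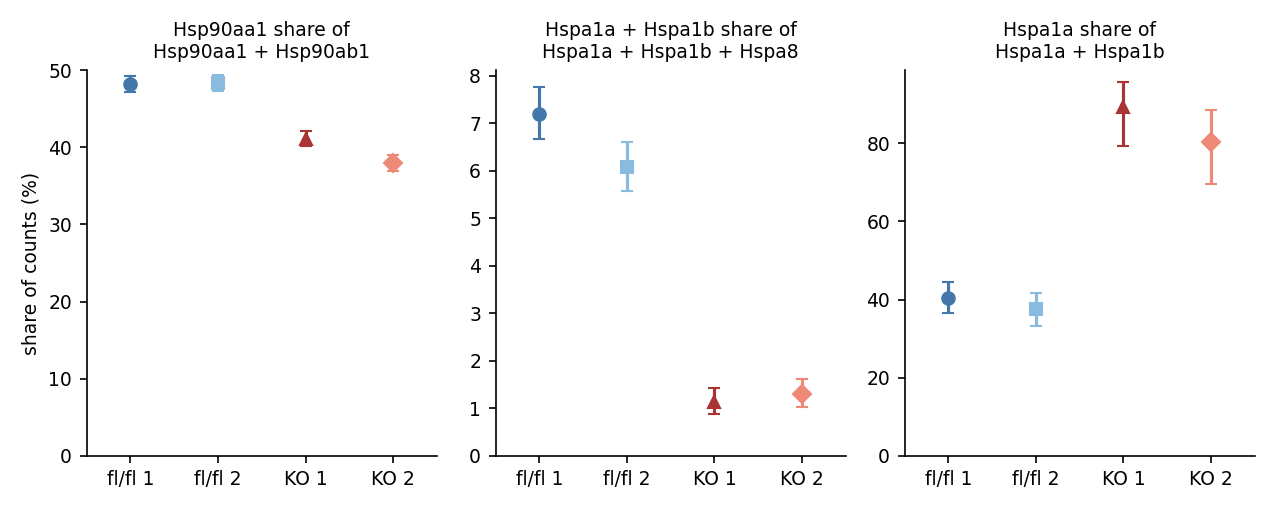
Share of counts (percent, with exact 95% interval) in each library for Hsp90aa1 among both HSP90 genes, for Hspa1a and Hspa1b among these copies and Hspa8, and for Hspa1a among the Hspa1 copies. The inducible shares are lower in both KO libraries (41.1% and 38.0%; 1.13% and 1.29%) than in the fl/fl libraries, and the Hspa1a share is higher (89.4% and 80.3%).

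Summed over genes, the 7 inducible genes stood at 956 ± 16.2 CPM in fl/fl and 745 ± 42.1 in KO, and the 2 constitutive genes at 1813 ± 65.5 and 1668 ± 54.5 CPM. The inducible sum is carried by Hsp90aa1, so it hides the size of the change in Hspa1a and Hspa1b. All 10 genes together took 0.272% and 0.284% of scaled counts in fl/fl and 0.243% and 0.245% in KO.

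The order of transcript levels also shifted, here as CPM per kilobase of annotated exon. In fl/fl, Hspa8 was highest at 265 ± 9.38 CPM per kilobase, followed by Hsp90ab1 at 224 ± 8.38, Hsp90aa1 at 160 ± 6.82 and Dnajb1 at 52.1 ± 0.819. Hspa1b (17.6 ± 1.03), Hspa1a (10.7 ± 1.56), Hsph1 (9.84 ± 0.32), Bag3 (3.7 ± 1.08) and Hsf1 (2.11 ± 0.306) came next. The libraries of Hspa1a and Hsph1 overlapped, so their order is not set. In KO, Hsp90ab1 at 279 ± 8.29 CPM per kilobase stood above Hspa8 at 193 ± 6.88, with no overlap of their libraries in either genotype. Hsp90aa1 (139 ± 8.7) and Dnajb1 (39.2 ± 2.16) kept their places, while Hspa1a (2.9 ± 0.163) and Hspa1b (0.567 ± 0.308) came below Hsph1 (6.87 ± 0.583), Bag3 (4.18 ± 1.05) and Hsf1 (3.34 ± 0.0759). Exon length is that of all annotated exons of a gene in GENCODE M21, and the levels of genes with shared sequence may be understated. It is 7266 bases for Hsph1 and 7099 for Hsf1, while their longest transcripts have 4764 and 3133 bases. The places of both genes in the order therefore depend on the length used. Before division by length, the KO libraries of Hspa8 (810 and 852 CPM) and Hsp90ab1 (820 and 855 CPM) overlapped. Of the 100-base windows, 31.6% of those of Hspa8 and none of those of Hsp90ab1 occur in another gene. The order of Hspa8 and Hsp90ab1 in KO is therefore not secure either.

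Of 27 other HSP70 cycle genes tested, 4 were lower, 3 were higher and 20 were not called (median log2 fold change -0.03). This is near the background, in which 18.4% of all genes were called in either direction. The lower ones included Hspa4l, an HSP110 relative (111 ± 1.35 to 65.2 ± 2.42 CPM, -0.77 on the log2 scale, SE 0.10), and the J-domain genes Dnajb4 (156 ± 11.7 to 98 ± 1.44 CPM, -0.67, SE 0.09) and Dnaja1 (136 ± 7.26 to 90.2 ± 2.55 CPM, -0.60, SE 0.09). Dnajb2, the most abundant gene of the list, was at 278 ± 4.27 and 272 ± 9.42 CPM and was not called (-0.04), but was called lower with a GC content offset (-0.25, adjusted p = 0.0088). The higher ones were the exchange factor gene Bag1 (0.33), Bag6 (0.29) and the ubiquitin ligase gene Stub1 (0.47), named after their values were seen. Stub1 shares 42.3% of its exon length with Jmjd8 on the opposite strand, so its reads are uncertain. With a GC content offset 5 were lower and none higher, and with a transcript length offset 7 were lower and 2 higher. Without fl/fl library 1 the counts were 3 lower and 2 higher, without fl/fl library 2 they were 3 lower and 0 higher, and without KO library 2 they were 6 lower and 4 higher.

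Of 18 HSP90 cochaperone genes, 3 were higher and none lower (median 0.01). This too is near the background of 18.4% of all genes called in either direction. The immunophilin genes Fkbp5 (22.1 ± 0.677 to 36.4 ± 2.76 CPM, 0.72 on the log2 scale, SE 0.17) and Fkbp4 (94.6 ± 8.09 to 124 ± 9.33 CPM, 0.39, SE 0.10) rose, as did the myosin chaperone gene Unc45a (16.7 ± 1.33 to 28.6 ± 3.27 CPM, 0.78, SE 0.20). The most abundant, the kinase adaptor gene Cdc37, was at 117 ± 7.81 and 131 ± 12.9 CPM and was not called, but was called higher without KO library 2 (0.24). With a GC content offset 1 was higher and 1 lower. Without fl/fl library 1 the list had 1 gene called higher and 0 lower, without fl/fl library 2 it had 0 in either direction, without KO library 1 it had 3 higher and 2 lower, and without KO library 2 it had 6 higher and 2 lower. The calls of Fkbp5 and Unc45a ended when fl/fl library 1 (0.68 and 0.85) or fl/fl library 2 (0.74 and 0.69) was left out, and that of Fkbp4 when fl/fl library 2 was (0.29). The GC content offset ended the calls of Fkbp4 (0.21) and Unc45a (0.53).

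Of 14 chaperonin and prefoldin genes, 1 was higher and 1 lower, with 0 called when either fl/fl library was left out, 1 higher and 2 lower without KO library 1, 2 and 3 without KO library 2, and 2 and 0 with a GC content offset. Over all genes tested, 18.4% were called in either direction. Cct3 had a log2 fold change of 0.29 and the prefoldin gene Vbp1 of -0.37. The most abundant, Tcp1, was not called at -0.07 (0.12 with a GC content offset). The call of Cct3 ended when fl/fl library 1 (0.30), fl/fl library 2 (0.26) or KO library 1 (0.21) was left out, and with DESeq2 (0.28, adjusted p = 0.118), RLE factors (0.28), no filter (0.27) or a transcript length offset (0.26). That of Vbp1 ended with a GC content offset (-0.15, adjusted p = 0.353) and without fl/fl library 1 (-0.43) or 2 (-0.33). None of 10 mitochondrial chaperone genes was called by edgeR (0 at an unadjusted p under 0.05) and 0 by DESeq2; the most abundant, the HSP60 gene Hspd1, was at 132 ± 1.13 and 139 ± 4.86 CPM, and Trap1, Clpb and Hspe1 had log2 fold changes of 0.19, 0.31 and 0.18. Of 8 further small heat shock protein genes, 1 was tested, Hspb6, which was not called at -0.20, and 4 had no count in any library. The other heat shock factor genes were low: Hsf2 had 24, 22, 26 and 11 counts, Hsf4 and Hsf5 had 1 count each over all libraries, and neither Hsf2 nor Hsbp1, which binds HSF1 trimers, was called, though Hsbp1 was called higher without KO library 1 (0.51).

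Immediate early genes, which stress and cell handling can raise, moved the other way from inducible HSP70. Of 20 tested, 12 were higher and 1 lower, against 8.5% higher and 9.89% lower over all genes tested. The median log2 fold change was 0.43, or 0.20 with a GC content offset (9 higher and 1 lower). Their summed level was 5332 to 5453 CPM in fl/fl and 7317 to 7356 CPM in KO. Klf2 was at 303 ± 0.596 CPM in fl/fl and rose to 638 ± 5.75 CPM in KO (1.07 on the log2 scale, SE 0.05). Fosb, Zfp36 and Jund rose by 0.77, 0.52 and 0.36 on the log2 scale, though 52.6% of the exon length of Jund is overlapped by Gm11175 on the opposite strand and its call ended with a GC content offset (0.05). The relation of these genes to the fall of Hspa1a and Hspa1b was not tested.

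**Figure D4:**
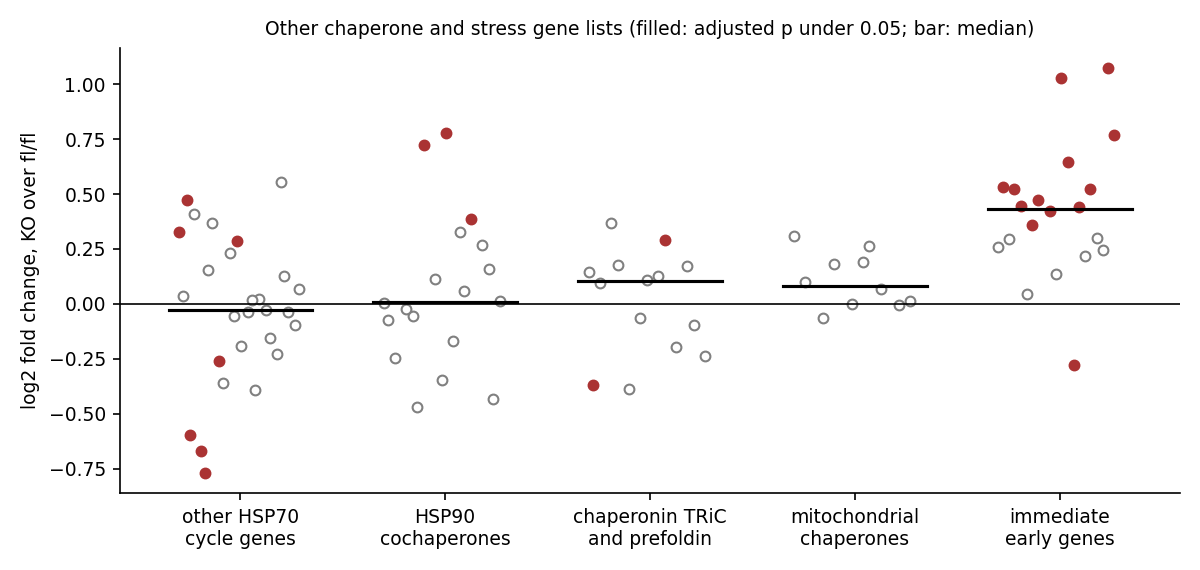
Log2 fold change of each tested gene (Med16 KO over Med16 fl/fl) in 5 lists of related genes; filled points passed the adjusted p threshold and bars are medians. The medians are -0.03 for other HSP70 cycle genes, 0.01 for HSP90 cochaperones, 0.10 for the chaperonin and prefoldin, 0.08 for mitochondrial chaperones and 0.43 for immediate early genes.

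For the most abundant inducible and constitutive members, the genes nearest in profile were listed by the Euclidean distance between mean-centred log2 CPM over the 4 libraries, among 3252 other genes with a mean of at least 50 CPM. For Hsp90aa1 they were Tent4a, Brf1 and Tmem59, at distances of 0.018 to 0.026. None of these was called, with log2 fold changes of -0.18, -0.20 and -0.20. For Hspa8 they were Itga4, Arel1 and Trp53bp1, at 0.016 to 0.024, and all were called lower at -0.44, -0.45 and -0.45. The call of Trp53bp1 ended without fl/fl library 1 (-0.50) or 2 (-0.41).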

How the data were processed

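Poly(A) RNA-seq libraries of Ter119+ bone marrow cells were analysed from the deposited whole-number counts per gene. Per the submitters' processing notes, reads were handled with HISAT2 2.1.0 and HTSeq 0.12.4 on build GRCm39; the strand setting is not given in the sources used here. The 5 rows that name no gene held 67.3% to 67.7% of reads (23.6% to 26.4% without a unique alignment) and were left out.

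Counts were filtered (filterByExpr), scaled by TMM and compared by genotype with the two-sided quasi-likelihood test of edgeR 4.0.16 in R 4.3.3, with Benjamini-Hochberg adjustment over 13052 genes; an adjusted p under 0.05 is called. The SE is the log2 fold change over the square root of F. Named genes are Med16, the 10 members, from each list the 3 smallest adjusted p and the most abundant gene, and the nearest profiles; lists of other marrow cells are given as counts and sums. The members and lists were chosen with earlier results of these data known. Exon length, GC content and overlaps are from GENCODE M21 (GRCm38), matched by identifier for 98.4% of tested genes, so no coordinates of counts are given. The procedure was run on simulated counts with the same spread for every gene, which cannot bear on variation between animals or cell mixtures. Alternatives were DESeq2 1.42.0, other scalings and filters, GC and length offsets, the replicate block and leaving out each library.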

Additional observations from a re-analysis of the deposited data

How the results depend on the processing

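Hspa1a and Hspa1b kept their direction and call in every alternative that gave a value (13 for Hspa1a, 12 for Hspa1b, which the filter of 10 counts in every library removes), with log2 fold changes of -2.13 to -1.73 and -5.64 to -4.49. Dnajb1, Hspa8 and Hsp90ab1 were called in 12 of 13 each, Hsph1 in 10, Hsp90aa1 in 9 and Hsf1 in 6, all with the same direction; Bag3 kept its direction in 10 and was called in none. The 2 members called higher became 1 with DESeq2, without a filter, with a GC content offset, with a transcript length offset and without either fl/fl library (range 1 to 2 over the fits without 1 library). With an assumed biological coefficient of variation of 0.2, chosen after seeing the data, 331 genes were higher and 289 lower, with 0 members higher and 2 lower. Without 1 library, genes called higher ranged from 454 to 1839 and genes called lower from 704 to 2172; in such fits the lone library is assumed to vary like the pair of the other genotype. The summed level of the constitutive members, a log2 difference of -0.12, was -0.066 with library size alone and -0.171 to -0.0926 without 1 library, and that of the inducible members, -0.36, was -0.43 to -0.32 without 1 library. With a GC content offset the log2 ratios differed by -0.34 (HSP90 pair) and -2.87 (HSP70 genes), in place of -0.51 and -2.53; the cause was not tested. The titles number the libraries 1 and 2, but deviations of same-numbered libraries were not correlated across genes (r = -0.005), and with the number as a replicate block 1268 genes were higher, 1499 lower, and the members' calls stayed at 2 higher and 6 lower. The block does not enter sums or ratios. Depth limits Hspb1, Bag3 and Hsf1, the members with the fewest counts over all libraries. In the KO libraries it also limits Hspa1b, at 7 and 15 counts, and Hspa1a, at 59 and 61 counts.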

Other observations

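The KO libraries differed from each other in some heat shock genes. Hspa1b in KO library 2 was higher than in KO library 1 by 1.17 on the log2 scale, on 15 against 7 counts, while the fl/fl libraries differed by -0.12. Bag3 differed by 0.52 between the KO libraries and by -0.60 between the fl/fl libraries. Hspa8 and Hsp90ab1, the members with the most counts, differed by 0.06 to 0.08 within either genotype. The 8 counts of Hspb1 fell in KO library 1 alone. Hspa1l, the HSP70 gene next to Hspa1a that is mainly expressed in testis, was chosen after seeing the data and had 19 and 24 counts in fl/fl and 16 and 8 in KO.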
